A study of Homo sapiens with 6 samples.

Results

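CXCL12, CXCL14 and CXCL16 are CXC chemokine ligands that many tissues make without inflammation, and CXCR4 and ACKR3 are the receptors of CXCL12. These 5 genes of the 25368 symbols in each table were chosen by name and from measured values, because CXCL12 was higher with the JNK inhibitor while other chemokines were lower. The levels of CXCL12 in iCAFs and iCAFs+JNKi are therefore given as a description. All 5 genes had 1 row in each table. Of the 5, CXCL12 was the only one with a mean of at least 1 FPKM in either table, and it reached that mean only in the JNKi table.

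The data were RNA-seq of MRC5, human embryonic lung fibroblasts that had been immortalised with hTERT, so that every library came from 1 cell line. In the JUN overexpression table, cells had been infected with adenovirus for 2 h and cultured for 3 days, and carried an empty vector (con), FLAG-tagged wild-type JUN (JUN WT) or FLAG-tagged JUN with alanine at both JNK phosphorylation sites (JUN AA). In the JNKi table, MRC5 had no treatment, and iCAFs had been kept for 7 days in conditional medium of MDA-MB-231 breast cancer cells. The iCAFs+JNKi were iCAFs given 1 µM JNKi (JNK-IN-8, a JNK inhibitor) for 48 h. Per the methods, conditional medium was collected in DMEM without FBS, while MRC5 were maintained in DMEM with FBS. Whether serum was added to the conditional medium is not stated, so tumour cell factors and serum cannot be told apart in iCAFs against MRC5. The treatment protocol names a DMSO vehicle, but the label of the iCAFs library does not say whether it received it. Whether the 48 h of JNKi lay within the 7 days of conditional medium or followed them is not stated in the sources used here, so inhibitor and culture time cannot be told apart. Each condition had 1 library, so no value has a replicate error, no test between conditions was made, and none of the differences below can be set against the spread between cultures. In such bulk samples, more RNA per cell and a larger share of expressing cells cannot be told apart.

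Chemokines are small secreted proteins that guide cell migration through G protein-coupled receptors. CXCL12 is the main chemokine of stromal cells. It holds blood stem cells and lymphocytes in their niches through CXCR4, and in tumours fibroblast CXCL12 is known to act on CXCR4 of cancer cells and leukocytes. ACKR3 binds CXCL12 and removes it without coupling to G proteins. CXCL14 is made by epithelia and stroma, and CXCL16 is a membrane-bound ligand of CXCR6 that can be shed. They are set apart here from the neutrophil-attracting CXC ligands such as CXCL8, which are induced by inflammatory signals.

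CXCL12 lies on the minus strand of chromosome 10 of GRCh37, the assembly also called hg19 that the authors used, at chr10:44865613-44881941. Its canonical transcript has 3 exons, GENCODE lists 7 transcripts of the gene, and no other gene shares its exon bases. No other protein-coding gene starts within 500 kb of the start of CXCL12. CXCL14 lies at chr5:134906369-134914969, CXCL16 at chr17:4636828-4643223, ACKR3 at chr2:237476430-237490997 and CXCR4 at chr2:136871919-136876747. CXCL14 shares exon bases with SLC25A48 and 1 unnamed gene, and CXCL16 with MED11 and ZMYND15, so FPKM of both depend on how shared reads were divided.

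Because the study overexpressed JUN, a subunit of AP-1, or inhibited JNK, the kinase of JUN, the bases upstream of the RefSeq gene starts were searched for the AP-1 heptamer TGANTCA, which reads the same on both strands apart from its centre, and for the related octamer TGACGTCA, which does not contain the heptamer. Windows were found for 3 of the 5 genes, CXCL12, CXCL14 and CXCR4, and were placed on GRCh37 by their single exact match. The upstream sequence of CXCL12 is shown because this gene carried the measurements, and that of CXCL8 because it is the most abundant CXC ligand of iCAFs. A short stretch of CXCL14 is shown because it holds the heptamer. Sequences are from RefSeq, 5′ to 3′ on the strand of each gene, and capitals mark a heptamer.
CXCL12, chr10:44880546-44880795, minus strand: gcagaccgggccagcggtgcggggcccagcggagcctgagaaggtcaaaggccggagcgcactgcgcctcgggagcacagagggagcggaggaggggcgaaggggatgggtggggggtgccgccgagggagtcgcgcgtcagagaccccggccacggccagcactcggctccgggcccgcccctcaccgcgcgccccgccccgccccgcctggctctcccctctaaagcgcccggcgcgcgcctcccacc
CXCL8, chr4:74606036-74606235, plus strand: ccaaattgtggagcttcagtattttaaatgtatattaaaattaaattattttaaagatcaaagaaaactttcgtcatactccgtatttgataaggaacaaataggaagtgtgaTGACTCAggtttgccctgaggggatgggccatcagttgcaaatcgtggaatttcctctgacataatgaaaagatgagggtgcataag
CXCL14, chr5:134914755-134914784, minus strand: agaaatctcagTGAGTCAccgagtggttct

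The 250 bases upstream of CXCL12 held neither motif. They lie in an intron of a longer GENCODE transcript of the same gene, and 78.0% of them are G or C, more than in 94.3% of all windows of this length, whose median is 58.0%. CXCL8 held TGACTCA, which starts 137 bases before its RefSeq start, in a window with 37.6% G and C. CXCL14 held TGAGTCA, which starts 92 bases before its start, in a window that overlaps an exon of a longer CXCL14 transcript. None of the 3 windows of CXCR4 held either motif. Of 35116 windows of 250 bases, 6.57% held the heptamer and 1.65% the octamer. A match is a run of letters, not a measured binding site, and a missing match covers only these windows.

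The libraries were first checked with JUN and with cell type markers. JUN was at 25.5 FPKM with the empty vector, 4543 with JUN WT and 291 with JUN AA, values that do not separate the introduced from the endogenous gene. It was at 57.1 FPKM in MRC5, 55.3 in tumour medium (iCAFs) and 21.1 with the inhibitor (iCAFs+JNKi). All 12 fibroblast markers, among them COL1A1, THY1 and PDGFRB, were at 1 FPKM or more in every library. The 8 epithelial markers summed to 7.25 to 20.6 FPKM over the 6 libraries, carried by KRT8, with CDH1, KRT5 and ESRP1 at 0 throughout. The 8 leukocyte markers summed to 31.3 to 86.0 FPKM, carried by CD68, with CD3E and MS4A1 among those at 0 throughout. The 6 endothelial markers summed to at most 0.93 FPKM in the JUN overexpression table and to 2.94 to 11.03 FPKM in the JNKi table, where TEK carried the sum and CDH5 was at 0. FPKM summed to 494603 to 613184 per library in the JUN overexpression table and to 359944 to 399532 in the JNKi table, and the number of reads is unknown.

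CXCL12 was at 2.13 FPKM in MRC5, 12.1 in tumour medium (iCAFs) and 118 with the inhibitor (iCAFs+JNKi). It was lowest in untreated cells, higher in tumour medium and higher still with the JNK inhibitor. The ratio was 5.66 for iCAFs to MRC5, 9.78 for iCAFs+JNKi to iCAFs and 55.3 for iCAFs+JNKi to MRC5. As differences of log2(FPKM + 1), a scale that understates the change of low values, these were 2.06, 3.19 and 5.25. Among all genes of a library, 40.8% were above CXCL12 in MRC5, 19.8% in tumour medium and 1.999% with the inhibitor.

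**Figure D1:**
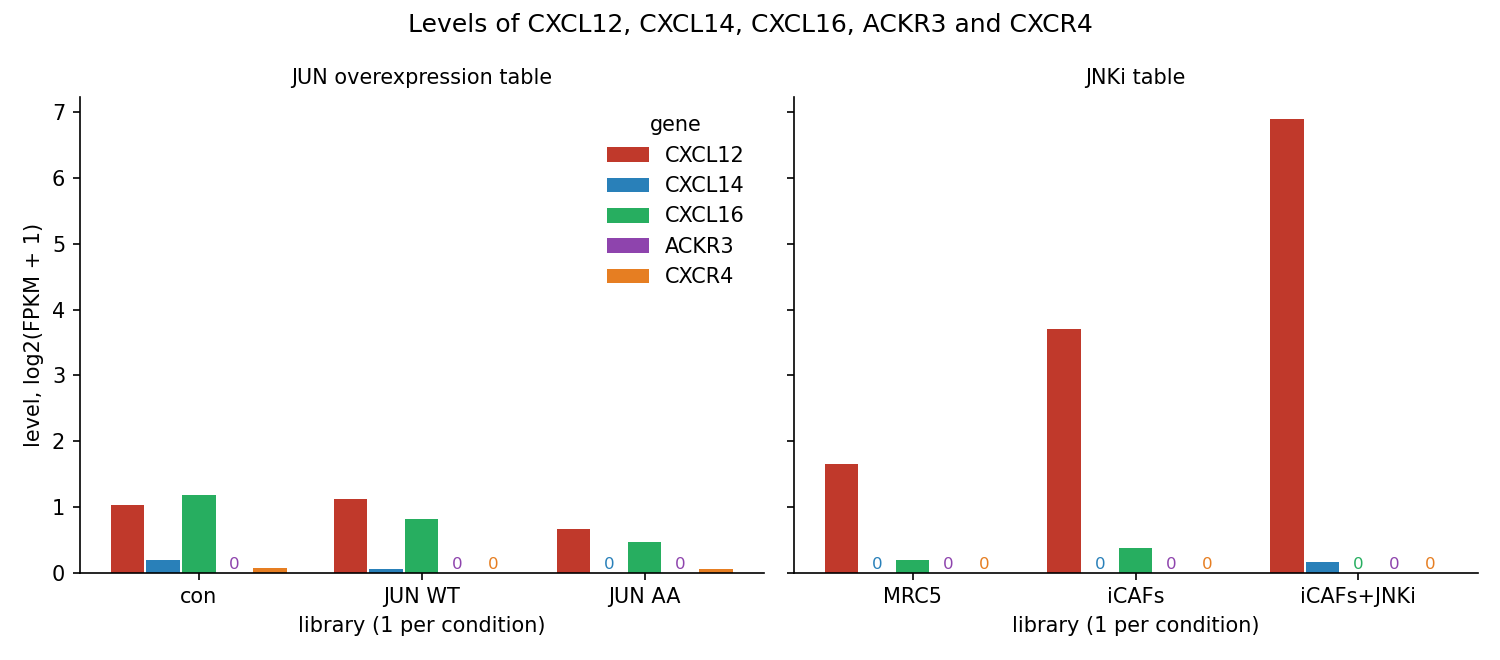
Levels of the 5 genes as log2(FPKM + 1) in each library, with the JUN overexpression table on the left and the JNKi table on the right, 1 library per bar and no error bars because there are no replicates. A coloured 0 marks a gene listed at 0 FPKM. In the JNKi table CXCL12 goes from 1.65 in MRC5 to 3.71 in iCAFs and 6.90 in iCAFs+JNKi, while the other 4 genes stay at 0.37 or less.

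All 3 of these CXCL12 differences were past 2-fold, a difference of at least 1 on the log2 scale. Because the rule used this contrast, the background is given for reading only. Of the 11780 genes whose mean reached 1 FPKM in the JNKi table, 1.94% were at least 2-fold higher in iCAFs than in MRC5, 2.25% in iCAFs+JNKi than in iCAFs and 3.28% in iCAFs+JNKi than in MRC5. Ordered from the most positive difference, CXCL12 was number 67 in iCAFs against MRC5, number 6 in iCAFs+JNKi against iCAFs and number 8 in iCAFs+JNKi against MRC5. The median gene differed by -0.06, -0.10 and -0.16 in these 3 comparisons. With every library at an equal FPKM total, the median of all genes shifted by 0.11 in iCAFs+JNKi against iCAFs and by 0.13 against MRC5. Without rescaling, the CXCL12 differences were 3.19 and 5.25 in these comparisons. Higher genes made up 53.3% of those past 2-fold in iCAFs+JNKi against iCAFs, and 64.0% when differences were centred on the median gene. In iCAFs+JNKi against MRC5 this share was 48.1%, and 59.3% with rescaled FPKM or 65.9% when centred.

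The remaining ligands were barely detected in these cells. CXCL14 was listed at 0 in MRC5 and in iCAFs and at 0.11 FPKM in iCAFs+JNKi. CXCL16 was at 0.14 FPKM in MRC5, 0.29 in tumour medium and 0 in iCAFs+JNKi. At this level and an unknown depth, no difference in either gene was detectable. Both receptors of CXCL12, the signalling CXCR4 and the scavenging ACKR3, were listed at 0 in all 3 libraries. The fibroblasts thus had mRNA for the ligand at up to 118 FPKM, with no FPKM assigned to either receptor.

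The rule that chose the genes names no value of the JUN overexpression table, and all 5 were low in it. CXCL12 was at 1.04 FPKM with the empty vector, 1.18 with JUN WT and 0.58 with JUN AA. Its mean of 0.93 FPKM lay under the limit of 1 FPKM, so it is not among the genes counted there. The log2(FPKM + 1) difference was 0.10 in JUN WT against con, -0.37 in JUN AA against con and 0.46 in JUN WT against JUN AA. The first of these was -0.05 when centred on the median gene, so its direction depended on scaling, and none reached 2-fold. A JUN level of 4543 FPKM in JUN WT thus came with 1.18 FPKM of CXCL12, beside 1.04 FPKM with the empty vector.

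CXCL16, the membrane-bound ligand, had similar low values in that table. It was at 1.26 FPKM with the empty vector, 0.76 with JUN WT and 0.37 with JUN AA, highest in the empty vector library. Its difference in JUN AA against con was -0.72, and -1.14 once every library was brought to an equal FPKM total. CXCL14 was at 0.15 FPKM with the empty vector, 0.038 with JUN WT and 0 with JUN AA. CXCR4 was at 0.054 FPKM with the empty vector, 0 with JUN WT and 0.041 with JUN AA, and ACKR3 was at 0 in all 3. The leukocyte marker PTPRC was likewise at 0.015 FPKM or less in these libraries. In the order of levels within con, CXCL16 and CXCL12 stood next to each other and above CXCL14, CXCR4 and ACKR3.

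CXCL12 was then set beside the other CXC ligands, which are described from a list of 40 further chemokine ligands. Of the CXC ligands, 7 others had a mean of at least 1 FPKM in the JNKi table. In MRC5 none of the CXC ligands was above CXCL12, which made up 67.4% of a summed CXC ligand FPKM of only 3.17. In iCAFs the sum was 721 FPKM, 5 other ligands were above CXCL12, and its share was 1.68%. In iCAFs+JNKi the sum was 547 FPKM, 2 ligands were above CXCL12, and its share was 21.6%. The 6 neutrophil-attracting ligands CXCL1, CXCL2, CXCL3, CXCL5, CXCL6 and CXCL8 summed to 0.41 FPKM in MRC5, 705 in tumour medium and 429 with the inhibitor. The lower sum with the inhibitor came from CXCL8, since the other 5 summed to 157 FPKM in iCAFs and to 189 FPKM with the inhibitor.

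**Figure D2:**
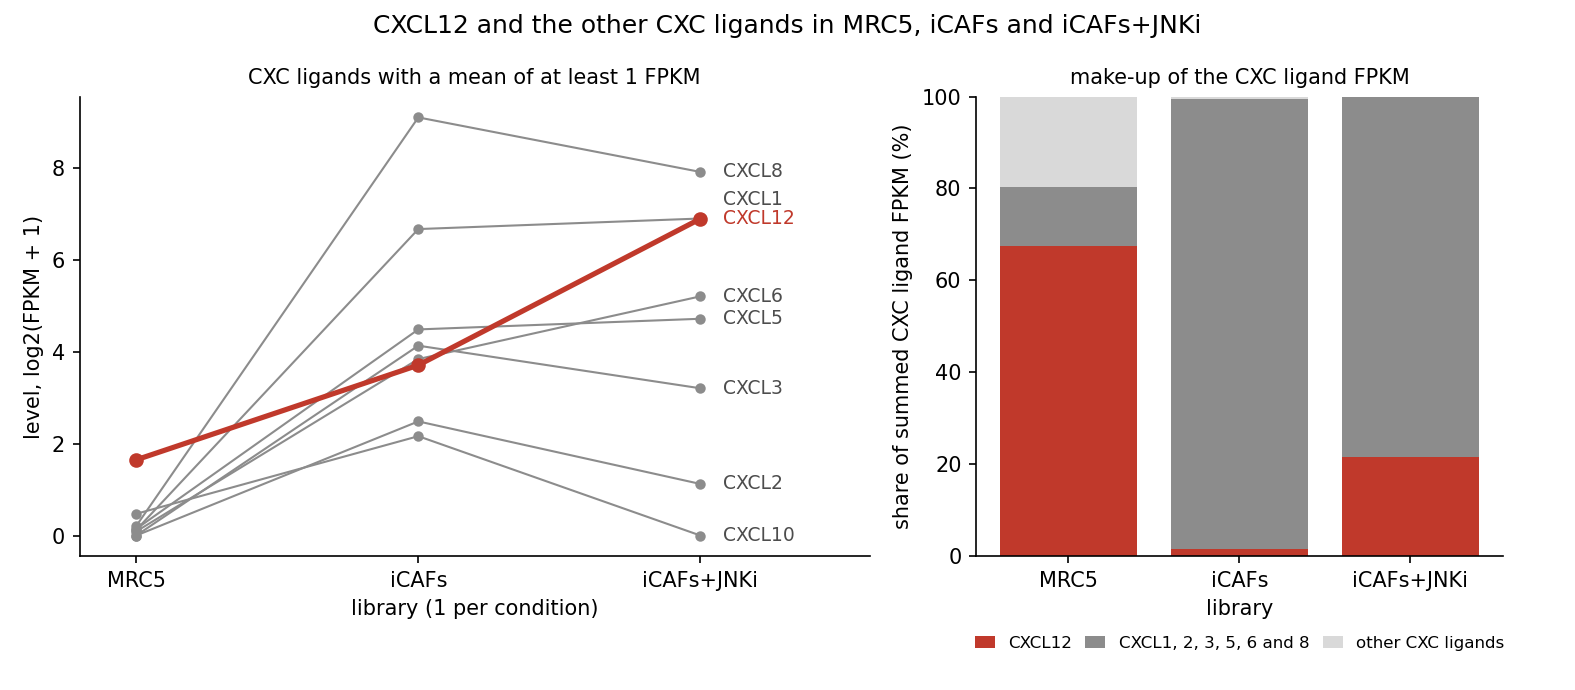
Left, levels of the CXC ligands with a mean of at least 1 FPKM as log2(FPKM + 1) in MRC5, iCAFs and iCAFs+JNKi, with CXCL12 in red. Right, share of the summed FPKM of 16 CXC ligands held by CXCL12, by 6 neutrophil-attracting ligands and by the others. CXCL12 holds 67.4%, 1.68% and 21.6% of the sum in the 3 libraries, and it ends next to CXCL1 in iCAFs+JNKi.

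CXCL8, a strong attractant of neutrophils, was at 0.15 FPKM in MRC5, 548 in tumour medium and 240 with the inhibitor. CXCL1 was at 0.088, 101 and 118 FPKM, and its level with the inhibitor was close to that of CXCL12. CXCL6 was at 0.063, 13.3 and 35.9 FPKM, so that it too was higher with the inhibitor. CXCL5 was at 0.10, 21.4 and 25.3 FPKM. CXCL3 was at 0, 16.5 and 8.22 FPKM and CXCL2 at 0, 4.595 and 1.18 FPKM, both lower with the inhibitor. CXCL10, a ligand induced by interferon, was at 0.39, 3.48 and 0 FPKM.

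Over the CXC, CC, XC and CX3C ligands together, 10 of the 40 other ligands had a mean of at least 1 FPKM in the JNKi table. In iCAFs against MRC5, 10 of the 10 were at least 2-fold higher, as were 1.94% of all genes. However, 9 of the 10 were under 1 FPKM in MRC5 and passed the limit only through the treated libraries. The count was therefore fixed in part by the limit. In iCAFs+JNKi against iCAFs, 6 of the 10 lay lower by 2-fold or more and 1 higher, beside 1.97% and 2.25% of all genes. This count is a description only, because the rule that chose CXCL12 used the same contrast, and because CXCL2, CXCL10, CCL3 and CCL20 reached the mean of 1 FPKM only through the iCAFs library and so had to be lower beside it. The median of the 10 was -1.27, beside -0.10 over all genes and 3.19 for CXCL12. CCL20 was lowest in this comparison, from 27.4 to 1.80 FPKM, and CCL2, an attractant of monocytes, went from 159 to 38.1 FPKM. CXCL6 was the ligand of the list that was higher by more than 2-fold, with a difference of 1.37. That CXCL12 lay above the 10 ligands restates how it was picked, but CXCL1, CXCL5 and CXCL6 were not lower with the inhibitor.

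**Figure D3:**
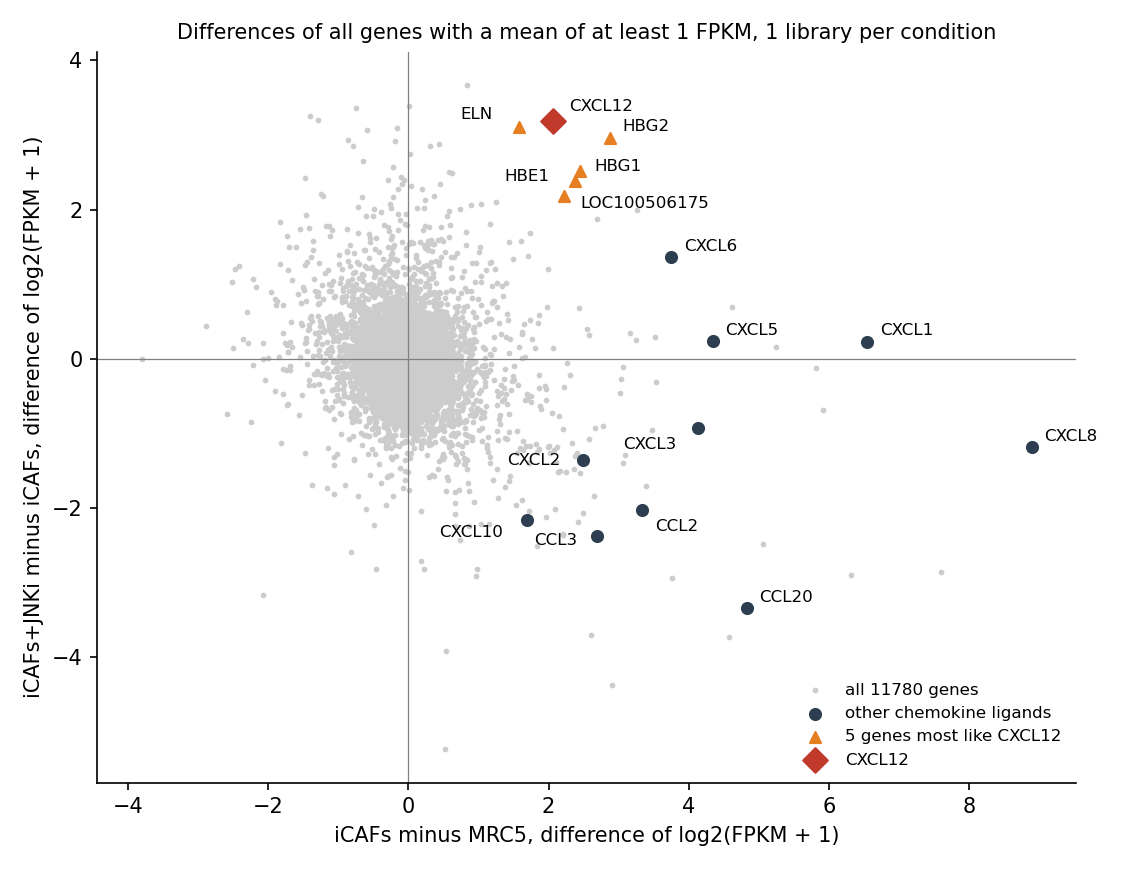
Difference of log2(FPKM + 1) in iCAFs minus MRC5 (horizontal) and in iCAFs+JNKi minus iCAFs (vertical) for 11780 genes, 1 library per condition. The 2 axes share the iCAFs library, so an error in it moves a gene on both. CXCL12 lies at 2.06 and 3.19, above the 10 other chemokine ligands, and ELN is the gene closest to it.

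Of the 40 other ligands, 7 in the JUN overexpression table had a mean of at least 1 FPKM, 3 of which were under 1 FPKM in con. In JUN WT against con 7 of the 7 were higher and 5 of them at least 2-fold, and 6.92% of all 10311 genes were. Of these 5, CXCL3, CXCL8 and CCL3 would not have reached the mean of 1 FPKM without the JUN WT library. These 3 were under 1 FPKM in con, so the limit fixed their direction. CCL5 was at 2.72 FPKM in con and 0 with JUN AA, so its mean over the 3 libraries drew mostly on JUN WT. Of all genes past 2-fold in that comparison 67.1% were higher, and 45.5% when centred on the median gene. CXCL8 was at 0 in con, 4.46 FPKM with JUN WT and 0.10 with JUN AA. CXCL10 was at 5.64, 7.82 and 0.55 FPKM in con, JUN WT and JUN AA, and CCL5 at 2.72, 8.66 and 0. In JUN AA against con the list went both ways, with 4 higher, 3 lower and a median of 0.14. Of all genes 48.6% were higher there, and their median was -0.02. At least 2-fold lower were 2 of the 7, CXCL10 and CCL5, and 3.77% of all genes. At least 2-fold higher was 1 of the 7, CCL3, from 0.12 to 1.69 FPKM, and 5.29% of all genes. Had CCL3 been no higher with JUN AA than in con, its mean over the 3 libraries would have been under 1 FPKM. The limit therefore fixed its direction in this comparison too. The share of higher genes among those past 2-fold there was 58.4%, and 26.1% with rescaled FPKM. In the same libraries CXCL12 stayed between 0.58 and 1.18 FPKM.

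The proteins that act on these ligands and receptors were described from a list of 33 genes, 26 of which had a mean of at least 1 FPKM in the JNKi table. None of the 26 was past 2-fold in iCAFs against MRC5, where 1.94% of all genes were higher and 202 of 11780 lower by that much. None was in iCAFs+JNKi against iCAFs either, where 2.25% of all genes were higher and 1.97% lower. With shares this low, none among 26 genes says little. In iCAFs+JNKi against MRC5, 1 was past 2-fold, DPP4, with a difference of 1.19 where 3.28% of all genes were higher by 2-fold. With the inhibitor 10 were higher and 16 lower against iCAFs, near the share of all genes, of which 37.4% were higher. The median of the 26 was -0.15 beside -0.10 over all genes. The largest positive difference was that of DPP4, a surface protease that trims the N-terminus of CXCL12. DPP4 was at 81.8 FPKM in MRC5, 103 in tumour medium and 188 with the inhibitor, so it was ordered as CXCL12 was, with differences of 0.33 and 0.87. The most negative was that of PXN, which encodes the focal adhesion protein paxillin, from 82.0 to 51.0 FPKM.

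The partners of CXCL16 and CXCR4 in this list differed in whether they were detected at all. ADAM10 and ADAM17, which shed CXCL16 from the membrane, were at 44.03 to 47.6 FPKM and at 8.20 to 9.76 FPKM in the JNKi table. CXCR6, the receptor of CXCL16, was at 0.10 to 0.27 FPKM. MIF, a further ligand of CXCR4, was at 353 FPKM in MRC5, 401 in tumour medium and 336 with the inhibitor, and its binding partner CD74 at 0.21 to 0.43 FPKM. The G protein subunit GNAI2, through which CXCR4 signals, was at 306, 265 and 213 FPKM. Genes that act downstream were thus detected, and the receptors CXCR4, ACKR3 and CXCR6 were at or near 0.

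Of these 33 genes, 25 in the JUN overexpression table had a mean of at least 1 FPKM and none was past 2-fold in either JUN library against con. Of all genes, 6.92% were higher and 3.39% lower by 2-fold in JUN WT against con. In JUN AA against con these shares were 5.29% and 3.77%. In JUN WT against con GNB1, a G protein subunit, was highest at 59.7 and 100 FPKM, and GRK5, a kinase that acts on activated receptors, lowest at 17.8 and 9.22 FPKM. The median of the 25 was -0.03, beside 0.15 over all genes. In JUN AA against con DPP4 was lowest, from 39.8 to 19.5 FPKM, while it was at 44.4 FPKM in JUN WT. HMGB1, a nuclear protein that can bind CXCL12 outside the cell, was highest, from 16.04 to 32.2 FPKM. The median there was 0.08, beside -0.02 over all genes, and -0.23 with rescaled FPKM, which shifted the median of all genes by -0.27. In JUN WT against JUN AA, DPP4 and GNB1 were at least 2-fold higher, with differences of 1.15 and 1.03, and HMGB1 lower, with -1.16, beside 6.65% and 5.61% of all genes. Of all genes past 2-fold there 54.3% were higher, 82.9% with rescaled FPKM and 33.3% when centred on the median gene.

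Genes known from CXCL12-rich stromal cells of bone marrow and vessel walls were described from a further list of 23, of which 14 had a mean of at least 1 FPKM in the JNKi table. With the inhibitor 10 of the 14 were higher and 4 lower, and the median was 0.37, where 37.4% of all genes were higher and their median was -0.10. By 2-fold or more, 3 of the 14 were higher and 2 lower, beside 2.25% and 1.97% of all genes. PDGFRB, the platelet-derived growth factor receptor of pericytes, differed most, from 23.1 FPKM in iCAFs to 74.8 FPKM, and was at 27.4 FPKM in MRC5. ANGPT1, the ligand of the receptor TEK, was at 10.6, 12.6 and 37.1 FPKM, in the order MRC5, iCAFs, iCAFs+JNKi. PDGFRA was at 34.3, 24.6 and 56.6 FPKM and KITLG, which encodes stem cell factor, at 18.1, 13.7 and 26.1 FPKM. NES, which encodes the filament protein nestin, was lowest, from 73.9 to 35.6 FPKM, and NT5E went from 482 to 235 FPKM. Higher values with the inhibitor were not particular to this list. Of the 12 fibroblast markers, which also include PDGFRB, 11 were higher and 1 lower, with a median of 0.88, and 5 were higher by 2-fold or more. The endothelial marker TEK was at 2.52, 3.77 and 10.4 FPKM in the same libraries, so it too was highest with the inhibitor, while CDH5 was at 0 and PECAM1 at 0.025 FPKM or less, and the part of TEK-expressing cells in these values was not tested.

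**Figure D4:**
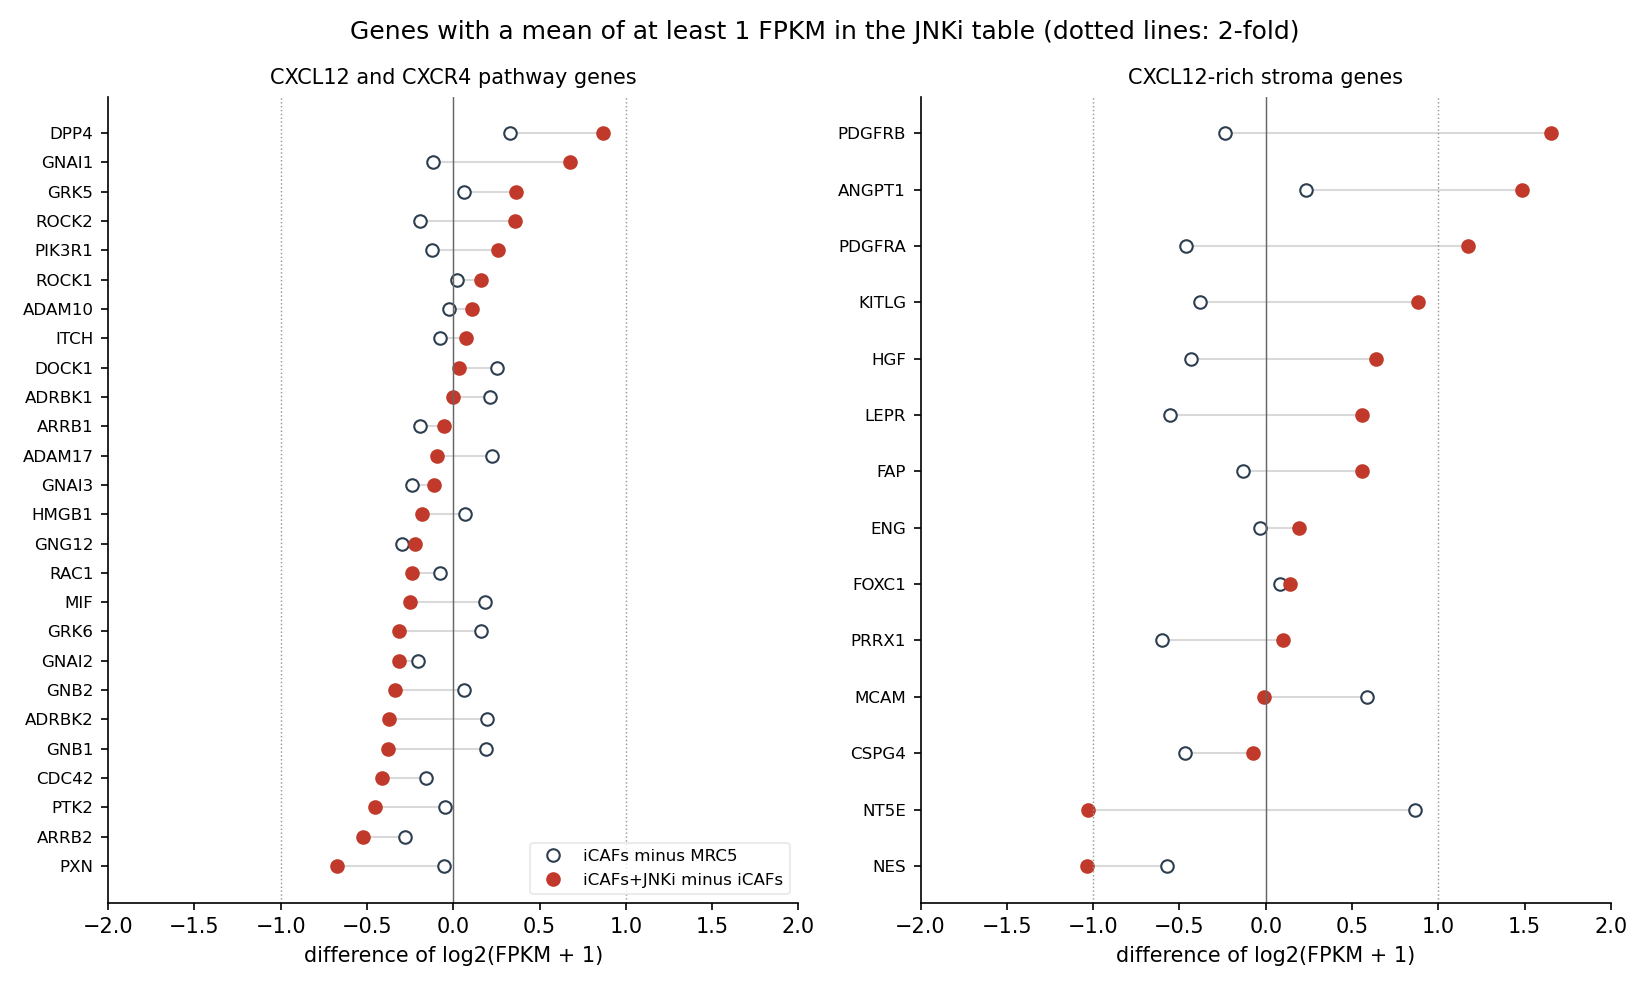
Differences of log2(FPKM + 1) for the measured genes of the pathway list (left) and of the stroma list (right), with iCAFs minus MRC5 as open circles and iCAFs+JNKi minus iCAFs as red circles, 1 library per condition. Dotted lines mark 2-fold. All pathway genes lie within 2-fold, while PDGFRB, ANGPT1 and PDGFRA lie above it with the inhibitor and NES and NT5E below it.

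In iCAFs against MRC5 the same stroma list was not ordered as CXCL12 was. Of its 14 genes, 4 were higher and 10 lower, where 40.6% of all genes were higher. The median was -0.31 beside -0.06 over all genes. None of the 14 was past 2-fold, where 1.94% of all genes were higher and 202 of 11780 lower by that much. PRRX1, a transcription factor of mesenchymal cells, was lowest, from 17.1 to 10.95 FPKM, and NT5E highest, from 264 to 482 FPKM. Key regulators of marrow CXCL12-rich cells were low, with EBF1 at 0.32 to 0.96 FPKM and EBF3 at 0.35 to 0.64 FPKM in the JNKi table, and FOXC1 was at 3.80 to 4.61 FPKM.

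The stroma list had 14 genes in the JUN overexpression table with a mean of at least 1 FPKM. In JUN WT against con 10 were higher and 4 lower, with a median of 0.04, where 60.9% of all genes were higher and their median was 0.15. By 2-fold or more, 2 of the 14 were higher and 2 lower, beside 6.92% and 3.39% of all genes. In JUN AA against con 7 were higher and 7 lower, with a median of 0.02, or -0.27 with rescaled FPKM, where 48.6% of all genes were higher and their median was -0.02. PDGFRA and PDGFRB were the 2 lower by 2-fold or more, as 3.77% of all genes were. PDGFRB was at 60.4 FPKM with the empty vector, 13.8 with JUN WT and 15.8 with JUN AA, lowest of the list in both comparisons. NT5E was highest in JUN WT against con, from 38.0 to 154 FPKM, and FAP, a protease of activated fibroblasts, in JUN AA against con, from 8.85 to 17.5 FPKM.

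The genes whose pattern was most like that of CXCL12 were taken as the 5 with the smallest Euclidean distance over the 2 differences iCAFs minus MRC5 and iCAFs+JNKi minus iCAFs, among 11780 genes and 3 libraries. ELN, which encodes elastin, was closest at a distance of 0.49, with 0.12 FPKM in MRC5, 2.33 in tumour medium and 27.6 with the inhibitor. The next 3 were globin genes of the embryo and fetus, HBG1 at 0.77, HBG2 at 0.84 and HBE1 at 0.86. HBE1 was at 1.41, 11.5 and 64.1 FPKM and HBG2 at 0.54, 10.2 and 86.8 FPKM, and HBG1 and HBG2 are near-identical copies whose reads may be divided between them. LOC100506175 was the fifth, at a distance of 1.01. With a pseudocount of 0.1, 1 of these 5 genes was among the 5 closest, so the set depends on how low values are weighed. In the JUN overexpression table ELN was at 2.01 FPKM with the empty vector, 0.10 with JUN WT and 0.16 with JUN AA, and HBG2 at 0.81, 0 and 0.069 FPKM, both highest in con. HBE1 was at 0.49, 0.072 and 0.74 FPKM and LOC100506175 at 7.62, 3.51 and 9.64 FPKM, both highest in JUN AA. The genes closest to CXCL12 in the JNKi table thus had no common order in these values. Most of the values were under 1 FPKM, and FPKM summed to 613184 in JUN AA beside 494603 in con. Whether the order of con and JUN AA holds with rescaled FPKM was not tested.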

How the data were processed

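RNA-seq of 6 libraries of MRC5, 1 per condition, was analysed from 2 tables of FPKM per gene. Per the labels and methods, the authors mapped reads to hg19 with HISAT2 2.1.0 at default parameters and made the deposited FPKM, which are scaled by exon length and by mapped fragments, with StringTie 2.1.1. The annotation, strand setting and read number are not given in the sources used here. FPKM are not counts, so no count model was used, and depth and the precision of single values are unknown. Each table had 25370 rows. Where rows shared a symbol (4 rows), the one of highest mean was used, and 28 symbols that read as dates were left as they were.

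Columns were matched to samples by name, and libraries were compared only within a table, because the tables were normalised separately. Differences of log2(FPKM + 1) were calculated with numpy 2.4.6 and pandas 2.3.3 under Python 3.11.15, and figures drawn with matplotlib 3.10.9. Counts and medians used genes whose mean reached 1 FPKM over the 3 libraries of a table. Genes, lists and their use were chosen with earlier results of these data known. Named are the 5 genes, the CXC ligands with a mean of at least 1 FPKM, direct partners, the largest rise and fall of each list and comparison, and the 5 genes closest to CXCL12. Further examples from the lists and markers were chosen after their values were seen. Gene positions are from GRCh37 with GENCODE, and upstream windows from RefSeq (GRCh38.p14), matched to GRCh37. The computation was tested on simulated data. As alternatives, the pseudocount was set to 0.1, library totals were brought to 1000000 (rescaled FPKM), differences were centred on the median gene, rows sharing a symbol were summed, and the limit on the mean was removed or set to 5 FPKM.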

Additional observations from a re-analysis of the deposited data

How the results depend on the processing

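CXCL12 kept its direction and stayed past 2-fold in every comparison of the JNKi table under all 4 alternatives computed for it. Its differences were 2.06 to 2.45 in iCAFs against MRC5, 3.19 to 3.38 in iCAFs+JNKi against iCAFs and 5.25 to 5.73 in iCAFs+JNKi against MRC5. Summing rows that share a symbol could not change CXCL12, which has 1 row, and gave the lower ends of these ranges. Because the rule used the levels in iCAFs and iCAFs+JNKi, the ranges are a description only. With a pseudocount of 0.1 and with rescaled FPKM, CXCL12 differed by 2.45 and 2.32 in iCAFs against MRC5, by 5.73 and 5.70 in iCAFs+JNKi against MRC5, by -0.74 and -0.67 in JUN AA against con and by 0.91 and 0.79 in JUN WT against JUN AA. A shift was taken as a move when it passed 0.25 on the log2 scale, or 1.5 times for counts, since there are no replicates. The median of the other chemokine ligands moved with how low values were handled. Without a limit on low values it was 0 in JUN WT against con, iCAFs+JNKi against iCAFs, and iCAFs against MRC5. With a pseudocount of 0.1 it was 1.63, -1.53 and 6.54 in these comparisons and 0.80 in JUN AA against con, and with a limit of 5 FPKM it was -0.93 and 4.34 in the last 2, while no ligand of the JUN overexpression table was left. With rescaled FPKM it was 5.17 in iCAFs against MRC5. With rescaled FPKM the medians in JUN AA against con were -0.23 for the pathway list and -0.27 for the stroma list, opposite in sign to the values given. The cause of these moves was not tested. Without a limit the median of the stroma list was -0.035 for iCAFs against MRC5 and 0.10 for iCAFs+JNKi against iCAFs. Of the 5 genes closest to CXCL12, 1 was shared with a pseudocount of 0.1 and 5 with a limit of 5 FPKM.

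Counts of all genes past 2-fold moved as well. The 714 higher in JUN WT against con became 1229 with a pseudocount of 0.1, 436 when centred and 458 with a limit of 5 FPKM. The 389 lower in JUN AA against con became 629 with a pseudocount of 0.1 and 957 with rescaled FPKM. In iCAFs+JNKi against iCAFs, the 265 higher became 411 with rescaled FPKM and 169 with a limit of 5 FPKM, and the 232 lower became 386 with a pseudocount of 0.1 and 147 with that limit. The 386 higher in iCAFs+JNKi against MRC5 became 581 with rescaled FPKM. No paired analysis was possible because each condition has 1 library, and no library could be left out for the same reason. The unknown depth limits what the values of CXCL14, CXCL16, CXCR4 and ACKR3 can show.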

Other observations

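With a pseudocount of 0.1, which gives more weight to low values, the genes closest to CXCL12 over the same 3 libraries were ID4, IL33, PLCH1, GGT5 and HBE1. ID4, an inhibitor of helix-loop-helix transcription factors, was at 0.080 FPKM in MRC5, 1.004 in tumour medium (iCAFs) and 7.38 with the inhibitor. IL33, which encodes an alarmin cytokine, was at 0, 0.34 and 3.01 FPKM. GGT5, a gamma-glutamyl transferase, was at 0.16, 0.73 and 8.76 FPKM. All 3 were lowest in MRC5 and highest with the inhibitor, as CXCL12 was, since the measure selects for that order.

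The 12 fibroblast markers, measured as a check of the cell type, also differed between the libraries. With the inhibitor, 11 lay above their iCAFs level and 1, VIM, below it, with a median log2(FPKM + 1) difference of 0.88, and COL1A1, COL3A1, DCN, LUM and PDGFRB were higher by 2-fold or more. Of all genes, 37.4% were higher in that comparison and 2.25% by 2-fold or more. In iCAFs against MRC5 3 were higher and 9 lower, with a median of -0.24, and DCN and S100A4 were lower by 2-fold or more. There 40.6% of all genes were higher, and 202 of 11780 lower by 2-fold or more. DCN, which encodes the matrix proteoglycan decorin, was at 296 FPKM in MRC5, 107 in tumour medium and 409 with the inhibitor. This tally was made after the values were seen.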
